A study of Arabidopsis thaliana with 12 samples.

Results

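Developing seeds of dellaq plants were set directly against developing seeds of lec1-4 plants of Arabidopsis thaliana, with 3 RNA-seq libraries of each, 6 of the 12 libraries of the series. All 12 libraries came from seeds dissected out of siliques at 9 days after pollination, from plants kept at 22 °C under 16 h of light and 8 h of dark. The other libraries were 3 of each of 2 wild-type sets of the Col-0 accession, Col-0-1 and Col-0-2, which stayed out of the test and whose means are given beside it. The labels define dellaq by its name, without listing the DELLA genes that it lacks, name lec1-4 as an allele, and do not state how the wild-type sets pair with the mutants or whether replicates came from separate plants, so p-values measure the spread between libraries, which may be technical. Of the 33602 genes in the deposited tables, 19287 nuclear genes reached 1 FPKM (fragments per kilobase of transcript, scaled to the mapped fragments of the library) or more in at least 3 of the 6 libraries and were tested, and 14036 nuclear genes did not.

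DELLA proteins are nuclear repressors of gibberellin responses: gibberellin binds GID1 receptors, the complex recruits the F-box protein SLY1, and the DELLA protein is degraded. LEC1 is a seed-specific NF-YB subunit of the trimeric NF-Y factor that binds CCAAT boxes, and it acts with LEC2, FUS3 and ABI3 to drive embryo maturation, when storage proteins, oil and desiccation proteins are laid down. In the seed these programmes run in the embryo, while the flavonoid pigments and the mucilage are made by the maternal seed coat.

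The libraries also differed in features that do not depend on the gene lists. FPKM of the 133 plastid-encoded genes summed to 7116 to 8593 in dellaq and 127 to 186 in lec1-4, with group means of 202 in Col-0-1 and 4819 in Col-0-2. Mitochondrial genes summed to 385 ± 70.3 in dellaq and 98.2 ± 12.4 in lec1-4 (SD, n = 3 each). The 10 nuclear rRNA loci went the other way, with a mean of 182 FPKM in dellaq, 1289 in lec1-4, 1143 in Col-0-1 and 68.7 in Col-0-2. By these sums dellaq lay near Col-0-2 and lec1-4 near Col-0-1, so the genotype difference and this split of the libraries cannot be told apart in the direct test. Pearson correlations of log2(FPKM + 1) were 0.987 to 0.992 within the groups and 0.872 to 0.898 between dellaq and lec1-4 libraries.

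The largest rises in dellaq were seed storage protein and oil body genes, up to a log2 change of 9.97, and the largest falls outside the rRNA loci were -5.91 for the carbonic anhydrase gene CA1 and -4.76 for RBCS2B, a small subunit gene of Rubisco. The groups came in separate deposited tables, so each change is set across tables. All log2 changes are dellaq minus lec1-4 of log2(FPKM + 1), so changes of low genes are understated, and a gene is called at an adjusted p under 0.05 by limma. By this rule 14409 of 19287 genes (74.7%) were called, 3859 higher (20.0%) and 10550 lower (54.7%) in dellaq. With a log2 change of at least 1 as well, 1031 genes (5.35%) were higher and 1874 (9.72%) lower. The dellaq and lec1-4 libraries did not overlap for 15028 genes (77.9%), of which 14193 (73.6% of those tested) were also called. The median log2 change of all tested genes was -0.28. A list's median is read against that shift, and its counts against the 20.0% higher and 54.7% lower. The share of calls that were higher in dellaq was 26.8% with FPKM as deposited, 51% after median-ratio scaling, 40.1% after upper-quartile scaling, 18.3% with equal FPKM sums and 48.9% after a trend with transcript length and GC content was removed. The median shift was -0.01 under median-ratio scaling, -0.11 under upper-quartile scaling and -0.44 with equal sums. Shorter genes sat higher: among 5 equal classes of exon length, the median was 0.03 in the shortest (72 to 1123 bases) and -0.40 in the longest (2579 to 16614 bases).

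**Figure D1:**
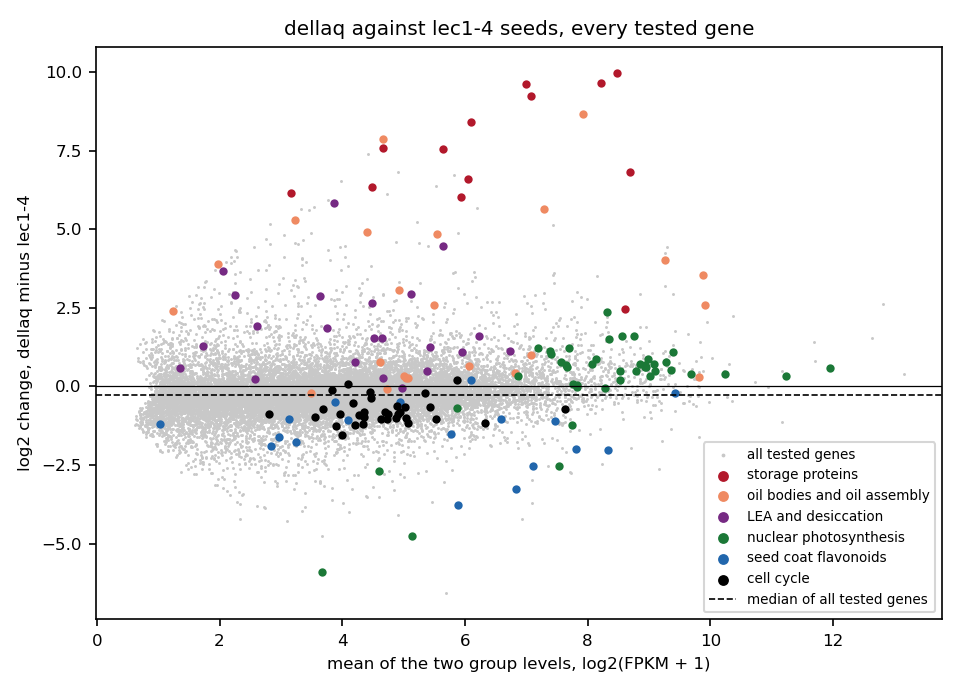
Each point is one of the 19287 tested genes, with the mean of the dellaq and lec1-4 levels in log2(FPKM + 1) on the horizontal axis and the log2 change, dellaq minus lec1-4, on the vertical axis. Storage protein genes reach 9.97 and CA1 and RBCS2B lie at -5.91 and -4.76 (the lowest grey point is an rRNA locus), while the dashed line marks the median of all tested genes, -0.28.

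The targeted genes were examined first. LEC1 had 44.6, 114 and 53.1 FPKM in dellaq and 2.63, 2.38 and 3.42 FPKM in lec1-4, beside 80.5 ± 12.9 for Col-0-1 and 124 ± 1.02 for Col-0-2 (SD, n = 3 each). The lec1-4 libraries were far below all others, and 2 of the 3 dellaq libraries were below both wild-type means. The log2 change was 4.12 ± 0.31 (SE, limma, adjusted p = 9.3e-06). Of the 5 DELLA genes, RGL1 had 1.51, 1.61 and 1.05 FPKM in dellaq and 14.3, 14.2 and 15.3 in lec1-4 (log2 change -2.71), and RGL2 had 3.74, 6.01 and 4.22 in dellaq and 30.1, 27.9 and 28.7 in lec1-4 (log2 change -2.42). Neither gene's dellaq libraries reached any lec1-4 or wild-type library. RGA was lower by less, with 21, 20.5 and 20.8 FPKM in dellaq and 28.1, 28.2 and 26.3 in lec1-4 (log2 change -0.39, adjusted p = 0.00022), and that call was lost after median-ratio scaling (log2 change -0.10, adjusted p = 0.12) and after the length and GC trend was removed (adjusted p = 0.19). GAI, with 8.98 ± 2.89 FPKM in dellaq and 9.19 ± 0.529 in lec1-4, and RGL3, with 8 ± 0.847 in dellaq and 7.82 ± 1.15 in lec1-4, did not pass the test (adjusted p = 0.75 and 0.81). FPKM counts fragments over the whole transcript, so a mutated gene can still show a level.

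Seed storage protein genes were the most separated group. All 13 listed genes, the 2S albumins, 12S globulins and vicilin-type proteins that fill protein storage vacuoles, rose in dellaq, each by a log2 change of at least 2.47, with a median of 7.55 beside -0.28 over all tested genes. SESA3, a 2S albumin gene, had 7130, 13340 and 10190 FPKM in dellaq and 11.3, 2.65 and 20.18 FPKM in lec1-4, against means of 943 for Col-0-1 and 29.3 for Col-0-2. Its log2 change was 9.97 ± 0.56 (SE), and each lec1-4 library lay below every Col-0-1 library. CRC, a 12S cruciferin gene, had 1623, 4299 and 2800 FPKM in dellaq, 5.02, 0.265 and 10.6 in lec1-4, and means of 75.2 for Col-0-1 and 1.94 for Col-0-2. CRA1, another cruciferin gene, had 3039, 5333 and 4346 FPKM in dellaq and 48, 17.7 and 51.5 in lec1-4 (log2 change 6.83). In each of these genes dellaq replicate 2 was the highest library and lec1-4 replicate 2 the lowest. SESA4 had 2428, 4915 and 3287 FPKM in dellaq and 4.28, 1.72 and 4.65 in lec1-4 (log2 change 9.62). SESA2, SESA3 and SESA4 are near-identical neighbours that may share reads, so their separate levels are uncertain. The cruciferin-like gene AT1G03890 had 40.1, 125 and 71.2 FPKM in dellaq and was listed at 0 in all 3 lec1-4 libraries. Together the 13 genes held 2.91%, 5.73% and 4.2% of all nuclear FPKM in dellaq, 0.0385%, 0.0267% and 0.0466% in lec1-4, and means of 0.441% in Col-0-1 and 0.0635% in Col-0-2. All 13 changes also stood, in the same direction and past the test, beyond the difference between the wild-type sets, whichever set was taken with dellaq.

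Oil genes were also higher in dellaq, by smaller amounts. Of 23 genes for oil body proteins and oil assembly, 21 rose and 1 fell, beside 20.0% and 54.7% of all tested genes. The rise was a log2 change of 1 or more for 14, and the median was 2.58. OLEO1, an oleosin that coats oil bodies, had 3853, 5339 and 4826 FPKM in dellaq and 9.73, 5.56 and 19.6 in lec1-4, with means of 765 for Col-0-1 and 105 for Col-0-2 (log2 change 8.68 ± 0.35, SE). CLO1, a calcium-binding caleosin, had 284, 478 and 409 FPKM in dellaq and 0.708, 0.37 and 0.89 in lec1-4 (log2 change 7.86). FAE1, the elongase that makes very-long-chain fatty acids of seed oil, had 244, 255 and 245 FPKM in dellaq and 7.9, 5.6 and 9.78 in lec1-4 (log2 change 4.86). Their dellaq and lec1-4 libraries did not overlap. ROD1, which passes phosphatidylcholine-derived diacylglycerol to oil, had 111 ± 6.4 FPKM in dellaq and 17.3 ± 0.326 in lec1-4, and OLEO3 had 2354 ± 149 in dellaq and 392 ± 37.6 in lec1-4. HSD1, a steroleosin gene, had 8.86, 20.0 and 14.6 FPKM in dellaq and was listed at 0 in all lec1-4 libraries. The acyltransferase gene DGAT1, which closes triacylglycerol synthesis, rose by only 0.65.

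Most plastid fatty acid synthesis genes were higher in dellaq. Of 30 genes, 27 rose and 2 fell, beside 20.0% and 54.7% of all tested genes, with a median of 0.87. A log2 change of 1 was reached by 9 of the rises. That number was 22 under median-ratio scaling, 16 under upper-quartile scaling, 17 after the length and GC trend was removed and 4 with equal FPKM sums. ACP5, an acyl carrier protein gene, stood apart with 388, 372 and 386 FPKM in dellaq and 58, 50.1 and 43.8 in lec1-4 (log2 change 2.90). EMB3003, a plastidic pyruvate dehydrogenase E2 gene, had 307 ± 18.4 FPKM in dellaq and 91.4 ± 2.41 in lec1-4 (log2 change 1.74). MOD1, the enoyl reductase, rose by 1.2 and FAB1, a condensing enzyme, by 1.14. For 27 of the 30 both wild-type means lay between the mutants, as for MOD1 with 506 ± 21.6 FPKM in dellaq, 219 ± 4.66 in lec1-4, 351 ± 0.765 for Col-0-1 and 356 ± 11.7 for Col-0-2. The falls were ACP4 and a pyruvate kinase gene, PKp3 (log2 change -0.91). WRI1, the AP2 factor that switches on glycolysis and fatty acid genes in seeds, did not rise with most of them. It had 135 ± 5.78 FPKM in dellaq and 154 ± 2.26 in lec1-4 (log2 change -0.19, adjusted p = 0.005 by limma). Read against the median of -0.28 over all tested genes, WRI1 was not lowered.

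Late embryogenesis abundant (LEA) and desiccation genes rose in 15 of 22 tested members and none fell, beside 20.0% and 54.7% of all tested genes. Their median was 1.53. AT5G44310, a LEA gene, had 79.6, 135 and 114 FPKM in dellaq and 0.888, 0.478 and 1.36 in lec1-4 (log2 change 5.85). PER1, a seed peroxiredoxin, had 163, 276 and 240.4 FPKM in dellaq and 9.72, 4.72 and 15.3 in lec1-4, and LEA4-1 had 73, 109 and 98.9 in dellaq and 11, 6.97 and 17.5 in lec1-4. The PER1 call was lost with Col-0-1 taken for dellaq (1.16, adjusted p = 0.085 by limma), and 9 of the 15 rises stood with either wild-type set. Unlike the storage genes, a subset was higher in both mutants than in either wild-type set. LEA7 had 84.5, 151 and 156 FPKM in dellaq and 44.1, 31.3 and 49.2 in lec1-4, with means of 14 for Col-0-1 and 3.88 for Col-0-2. EM1, an early methionine-labelled protein gene of dry seeds, had 5.26, 28.4 and 42.7 in dellaq and 4.95, 1.39 and 11 in lec1-4, overlapping and not called (adjusted p = 0.058), against 0.025 for Col-0-1 and 0.159 for Col-0-2. RAB18, an abscisic acid-induced dehydrin gene, had 16.6, 31.6 and 54.7 in dellaq and 2.98, 4.5 and 2.75 in lec1-4. In EM1, EM6 and RAB18 dellaq replicate 3 was the highest library, whereas replicate 2 was highest for the storage genes.

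The upstream windows of 4 strong rises and of the largest fall were read for the RY element, CATGCA on either strand, which the B3 factors ABI3, FUS3 and LEC2 bind. Each window is the 250 bases before the annotated gene start in RefSeq TAIR10.1, written from 5′ to 3′ on the gene's strand. The authors' build is not given in the sources used here, so these coordinates belong to the reference and not to the deposited values. Capitals mark CATGCA or its reverse complement TGCATG. The windows are SESA3 (chr4:13611546-13611795, plus strand), CRC (chr4:14087306-14087555, plus strand), OLEO1 (chr4:12900180-12900429, plus strand), CLO1 (chr4:13475372-13475621, minus strand) and CA1 (chr3:198665-198914, minus strand).
SESA3: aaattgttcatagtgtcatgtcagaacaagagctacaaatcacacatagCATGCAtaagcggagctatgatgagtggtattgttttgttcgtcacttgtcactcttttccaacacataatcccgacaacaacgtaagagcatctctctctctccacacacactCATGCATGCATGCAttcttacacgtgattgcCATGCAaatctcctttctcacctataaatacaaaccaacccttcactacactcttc
CRC: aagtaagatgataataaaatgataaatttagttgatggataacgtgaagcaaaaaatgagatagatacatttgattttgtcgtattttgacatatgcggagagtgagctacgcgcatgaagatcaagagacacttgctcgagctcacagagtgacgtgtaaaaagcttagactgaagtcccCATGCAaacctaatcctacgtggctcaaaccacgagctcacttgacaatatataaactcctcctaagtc
OLEO1: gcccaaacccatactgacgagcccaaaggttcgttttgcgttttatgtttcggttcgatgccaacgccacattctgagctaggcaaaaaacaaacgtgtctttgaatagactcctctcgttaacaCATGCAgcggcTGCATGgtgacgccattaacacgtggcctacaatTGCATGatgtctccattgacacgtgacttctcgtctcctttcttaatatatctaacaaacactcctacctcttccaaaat
CLO1: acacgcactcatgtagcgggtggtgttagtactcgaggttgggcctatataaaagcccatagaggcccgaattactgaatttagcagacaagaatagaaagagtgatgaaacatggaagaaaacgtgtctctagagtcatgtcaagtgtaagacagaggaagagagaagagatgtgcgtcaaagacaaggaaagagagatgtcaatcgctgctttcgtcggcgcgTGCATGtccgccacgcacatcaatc
CA1: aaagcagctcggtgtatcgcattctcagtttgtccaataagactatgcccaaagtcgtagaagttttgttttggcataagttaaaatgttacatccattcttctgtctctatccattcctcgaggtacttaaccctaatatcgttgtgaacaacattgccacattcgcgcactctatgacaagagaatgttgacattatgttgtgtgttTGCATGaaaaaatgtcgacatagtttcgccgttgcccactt

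CATGCA stood 5 times on the gene's strand of the SESA3 window, 3 of them in 1 run where matches of both strands overlap. The CRC, CLO1 and CA1 windows held 1 match each, on the other strand for CLO1 and CA1, so CA1 did not differ from CRC and CLO1 in number. Across the lists, RY matches stood in 11 of 13 storage protein windows (84.6%), 14 of 23 oil windows (60.9%) and 5 of 24 LEA windows (20.8%), beside 7.76% of the 19260 tested genes with a window and 8.84% of all annotated genes. Among genes with a log2 change of 1 or more, 174 of 1027 higher windows (16.9%) and 184 of 1873 lower windows (9.82%) had one. Of the 12 largest rises 10 had a match, and of the 12 largest falls 1 did, which was CA1. The G-box CACGTG, which bZIP factors bind and which reads the same on both strands, ordered the lists differently: it stood in 75% of LEA windows, 61.5% of storage windows and 26.1% of oil windows, beside 7.57% of tested genes. CCAAT, on either strand, was in 30.8% of storage windows, 64.3% of nuclear photosynthesis windows and 60.6% of cell cycle windows, beside 47.5% of tested genes. A match describes these letters and is not a measured binding site.

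**Figure D2:**
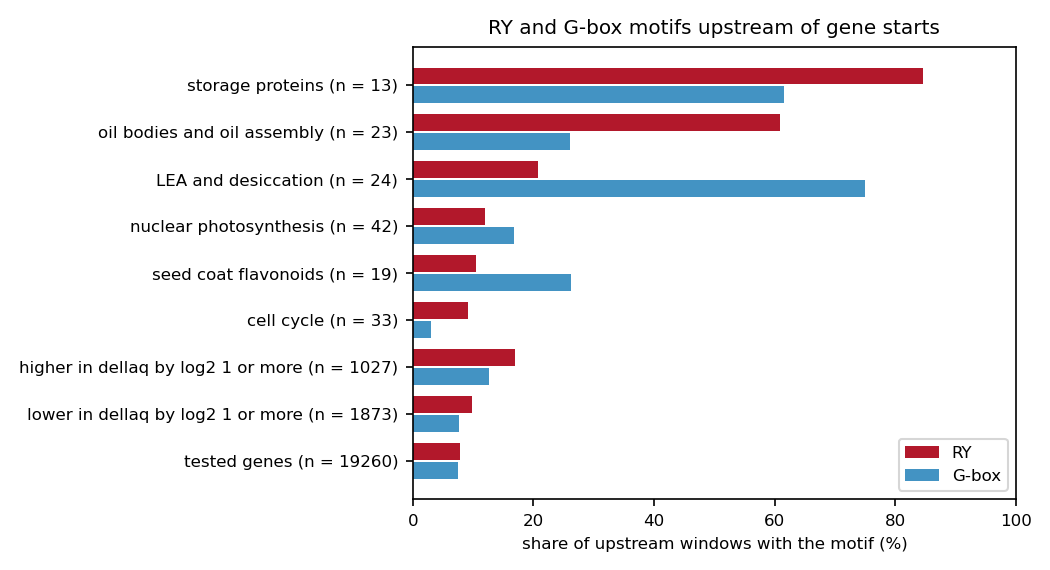
Bars give the percent of 250-base upstream windows holding the RY element (CATGCA, red) or the G-box (CACGTG, blue), on either strand, for 6 gene lists, for genes higher or lower in dellaq by a log2 change of 1 or more, and for all tested genes. RY is most frequent upstream of storage protein genes (84.6%) and the G-box upstream of LEA genes (75%), with 7.76% and 7.57% over all tested genes.

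The transcriptional regulators of maturation did not move as a block: 10 of 20 tested rose and 9 fell, beside 20.0% and 54.7% of all tested genes. Their median was 0.11, or -0.06 with equal FPKM sums. Of the 10 rises 6, and of the 9 falls 5, stood with either wild-type set. L1L, the closest relative of LEC1, had 356, 362 and 391 FPKM in dellaq and 71.8, 58 and 69.2 in lec1-4, with means of 232 for Col-0-1 and 97.8 for Col-0-2 (log2 change 2.47). ABI3 had 90.5, 96.7 and 98.6 FPKM in dellaq and 31.3, 26.7 and 33.3 in lec1-4 (log2 change 1.62), and its wild-type means, 84.3 for Col-0-1 and 36.6 for Col-0-2, split towards one mutant each. The bZIP genes BZIP67 and EEL rose by 2.04 and 2.00. DOG1, the dormancy gene, had 8.15, 14 and 11.6 FPKM in dellaq and 1.29, 1.91 and 1.03 in lec1-4. LEC2 went the opposite way, with 5.28, 4.53 and 4.42 FPKM in dellaq and 28.2, 31.5 and 25.2 in lec1-4 (log2 change -2.35), and its wild-type means of 16.7 for Col-0-1 and 14.1 for Col-0-2 lay between. FUS3 differed little, with 135 ± 8.07 FPKM in dellaq and 103 ± 6.93 in lec1-4 (log2 change 0.38). MYB115, a MYB gene that can induce embryonic programmes, fell by 1.7, and ABI5 had 8.12, 10.7 and 8.78 in dellaq and 14, 12.8 and 16.8 in lec1-4, both above the wild-type means of 5.78 and 5.92. FUS3 changed sign with the wild-type set used: relative to the wild types the difference was 1.84 with Col-0-2 taken for dellaq and -1.08 with Col-0-1.

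**Figure D3:**
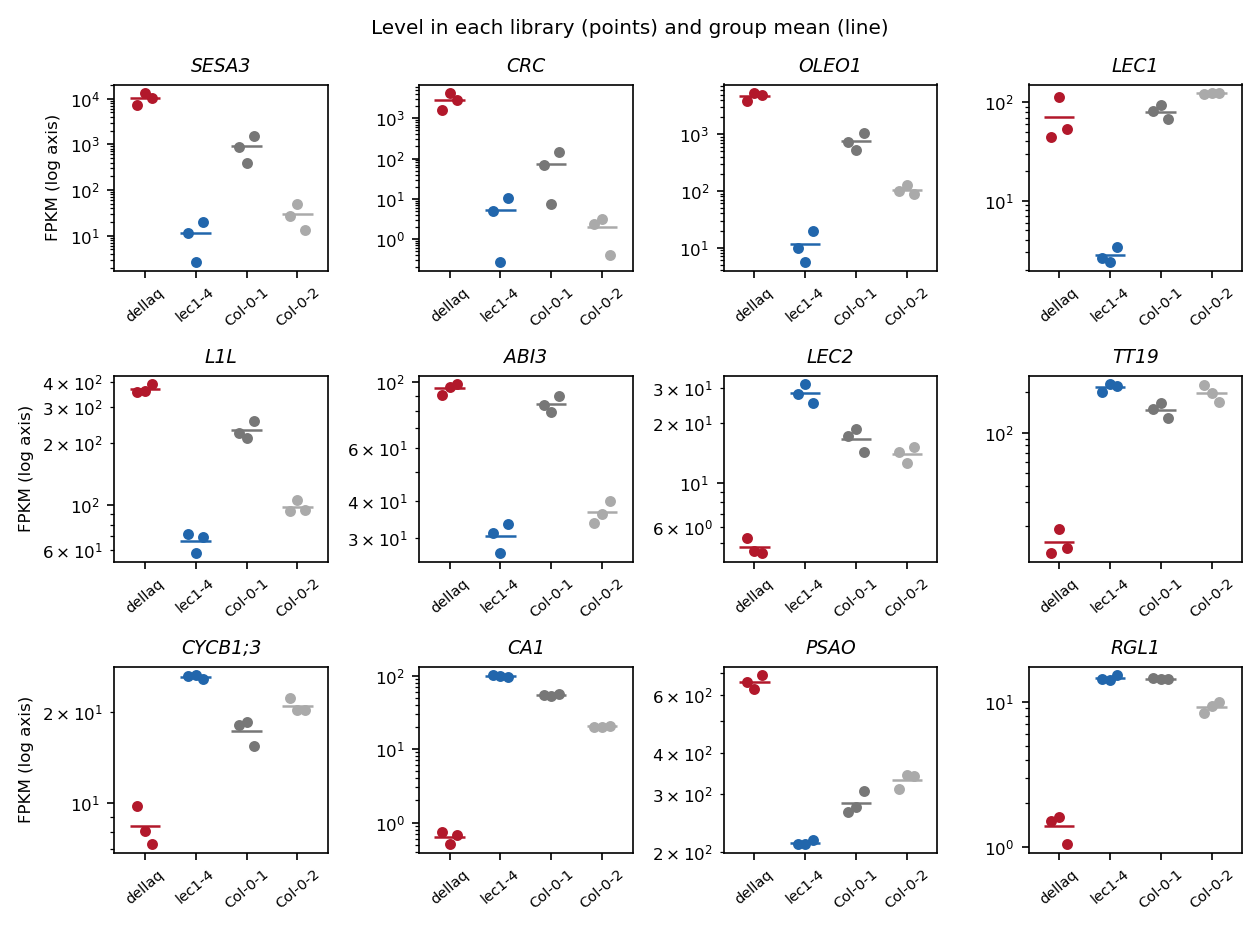
Each panel gives the FPKM of 1 gene on a log axis in every library of dellaq, lec1-4, Col-0-1 and Col-0-2, with a line at the group mean (n = 3 each). The dellaq points lie above the lec1-4 points for SESA3, CRC, OLEO1, LEC1, L1L, ABI3 and PSAO, and below them for LEC2, TT19, CYCB1;3, CA1 and RGL1.

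Photosynthesis genes were divided by role after the values were seen. Of the 42 nuclear genes listed, 32 rose and 6 fell. Among the 31 light-harvesting and photosystem genes 29 rose and none fell, with a median of 0.72. Among the 11 carbon fixation genes 3 rose, 6 fell and the median was -0.69. The carbon fixation counts lie near the shares of all tested genes, 20.0% higher and 54.7% lower. LHCB1.2, a light-harvesting protein of photosystem II, had 775, 684 and 713 FPKM in dellaq and 139.6, 139 and 140.1 in lec1-4 (log2 change 2.37). PSAO, a photosystem I subunit, had 656, 625 and 688 in dellaq and 211, 212 and 217 in lec1-4, with both wild-type means between (281 for Col-0-1, 330.5 for Col-0-2). The libraries of each group lay close together in both genes. On the carbon side, CA1 had 0.746, 0.509 and 0.676 FPKM in dellaq and 102, 97.2 and 94.3 in lec1-4, with means of 54.3 for Col-0-1 and 20.3 for Col-0-2 (log2 change -5.91 ± 0.08, SE). RBCS2B had 5.57, 5.78 and 5.85 in dellaq and 186, 171 and 187 in lec1-4, and RBCS3B had 77, 69.3 and 81.8 in dellaq and 453, 437 and 442 in lec1-4. RCA, Rubisco activase, fell by 1.22. The RBCS genes, and the LHCB1 genes, are close copies whose reads may be split between them. Relative to the wild types, the median of the photosystem group was 1.27 with Col-0-2 taken for dellaq and 0.21 with Col-0-1, and that of the carbon fixation group -0.31 and -1.14. The plastid-encoded sums above differed in the same direction as the photosystem group, and their part in it was not tested.

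**Figure D4:**
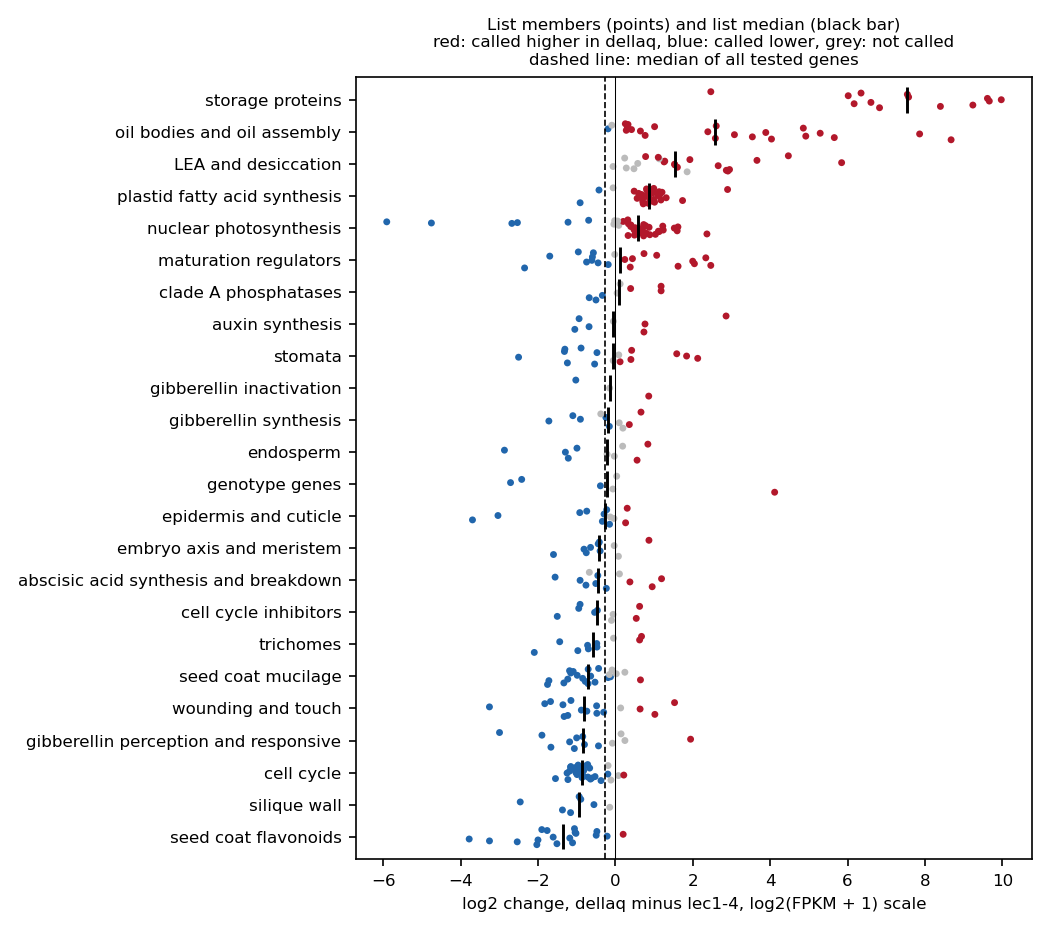
Each point is a tested member of 1 of the 24 gene lists at its log2 change, dellaq minus lec1-4, coloured by the call, with a black bar at the list median and a dashed line at the all-gene median of -0.28. Storage proteins (median 7.55) and oil genes (2.58) lie farthest right, and seed coat flavonoids (-1.35) and silique wall genes (-0.94) farthest left.

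Seed coat genes were lower in dellaq. Of 18 tested flavonoid genes 17 fell and 1 rose, beside 54.7% lower and 20.0% higher over all tested genes. A log2 change of 1 or more was reached by 14 of the falls, and the median was -1.35. TT19, a glutathione transferase needed for pigment to reach the vacuole, had 12.5, 19.1 and 13.7 FPKM in dellaq and 199, 231 and 222 in lec1-4, with 148 ± 19.2 for Col-0-1 and 197 ± 28.1 for Col-0-2 (log2 change -3.78). DFR, dihydroflavonol reductase, had 56.5 ± 5.98 in dellaq and 333 ± 24.3 in lec1-4, and TT4, chalcone synthase, the first step of the pathway, had 154, 169 and 153 in dellaq and 609.5, 724 and 627 in lec1-4. BAN, the anthocyanidin reductase of the inner seed coat, had 112 ± 12.2 in dellaq and 448 ± 11.8 in lec1-4. The dellaq libraries were the lowest of the series for these genes, and the lec1-4 libraries stood near the wild-type means. Of 22 mucilage genes 17 fell and 1, the xylosidase gene BXL1, rose, beside the same shares of all tested genes. The mucilage counts became 14 lower and 5 higher under median-ratio scaling or after the length and GC trend was removed. Of the 17 falls 9 stood with either wild-type set. MYB61 had 50.8 ± 3.59 FPKM in dellaq and 129 ± 5.14 in lec1-4, and GL2, the homeodomain gene of coat epidermis and trichomes, had 69.8, 61.5 and 54.4 in dellaq and 228, 231 and 176 in lec1-4. Bulk seeds give no way to tell fewer cells of a type from less RNA per cell.

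Marker sums differed between the mutants. The seed coat markers include TT4, DFR, BAN and GL2, described above, so they partly repeat the seed coat lists. The 11 seed coat markers, all lower in dellaq, summed to 1700 to 2018 FPKM in dellaq, 3561 to 4010 in lec1-4, 3051 to 3611 in Col-0-1 and 3912 to 4524 in Col-0-2. The 9 endosperm markers summed to 25.1 to 30.8 FPKM in dellaq, 64.9 to 71.5 in lec1-4, 48.4 to 55.0 in Col-0-1 and 56.7 to 67.3 in Col-0-2. ZOU, with means of 17.2 FPKM in dellaq and 43.1 in lec1-4, held most of these sums. Of 7 tested endosperm markers 1 was higher and 4 lower, near the shares of all tested genes, 20.0% and 54.7%. IKU2 and MINI3 were below 1 FPKM in every library. The 8 silique wall markers, chosen for tissue that dissection should remove, summed to 114 to 137 FPKM in dellaq and 206 to 232 in lec1-4. Their sums were 202 to 209 in Col-0-1 and 157 to 168 in Col-0-2. Of 7 tested 6 were lower in dellaq, 3 of them with either wild-type set, and ADPG2 was below 1 FPKM throughout. Their median was -0.47 with Col-0-2 taken for dellaq and -2.24 with Col-0-1. Embryo markers had sums of 241 to 263 FPKM in dellaq, 183 to 200 in lec1-4, 232 to 269 in Col-0-1 and 109 to 122 in Col-0-2. The dellaq range lay within that of Col-0-1, and lec1-4 lay above Col-0-2. Yet 6 of 9 markers were lower and 2 higher in dellaq than in lec1-4, beside 54.7% and 20.0% of all tested genes. FUS3 and ABI3, both described above, held most of the embryo sums, which therefore mainly repeat those 2 genes. What these sums contribute to the other gene groups was not tested.

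Proliferation genes were lower in dellaq. Of 33 cell cycle genes 29 fell and 1 rose, beside 54.7% lower and 20.0% higher over all tested genes. A log2 change of 1 or more was reached by 10 of the falls, and the median was -0.86, or -0.59 under median-ratio scaling. The falls of that size numbered 1 under median-ratio scaling, 4 under upper-quartile scaling, 1 after the length and GC trend was removed and 18 with equal FPKM sums. CYCB1;3, a mitotic cyclin, had 9.78, 8.09 and 7.29 FPKM in dellaq and 26.5, 26.6 and 25.8 in lec1-4, with means of 17.4 for Col-0-1 and 21 for Col-0-2. CDKB1;2, a mitotic kinase, had 8.71 ± 0.396 in dellaq and 22.1 ± 0.816 in lec1-4, CDC20.1, an activator of the anaphase-promoting complex, 52.7 ± 4.11 in dellaq and 119 ± 1.7 in lec1-4, and MCM5, of the replication helicase, 16.2 ± 0.573 in dellaq and 34.5 ± 1.41 in lec1-4. The calls covered both replication and mitosis genes. Of 9 cell cycle inhibitors 5 fell and 2 rose, near the shares of all tested genes. The falls were led by KRP3 (6.58 ± 1.36 FPKM in dellaq and 20.4 ± 2.51 in lec1-4), and the rises included SIM (51.3 ± 4.01 in dellaq and 32.9 ± 1.34 in lec1-4).

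Gibberellin genes were grouped by role. Of 13 tested genes for perception or known to answer gibberellin, 9 fell and 1 rose, with a median of -0.85. GID1A, a receptor, had 10.7, 11.9 and 13 FPKM in dellaq and 25.8, 26.1 and 25.6 in lec1-4, and GID1B had 1.39, 1.44 and 1.63 in dellaq and 5.79, 6.53 and 8.62 in lec1-4. SLY1 had 18.2 ± 1.22 in dellaq and 32.5 ± 0.702 in lec1-4. These receptor-pathway genes were lower in every dellaq library than in any lec1-4 library. SCL3, a GRAS gene that DELLA proteins activate, had 8.4 ± 1.27 FPKM in dellaq and 20.3 ± 2.82 in lec1-4. The largest fall was AT5G50915, with 2.85, 3.06 and 3.5 in dellaq and 30.5, 28.4 and 37.6 in lec1-4 (log2 change -3.0). GASA3, a gibberellin-regulated peptide gene, was the rise, with 2.01, 2.67 and 7.51 in dellaq and 0.113, 0.325 and 0.12 in lec1-4. In gibberellin synthesis 2 of 10 tested genes rose and 5 fell, near the 20.0% and 54.7% of all tested genes, and the list median, -0.20, became 0.09 under median-ratio scaling and 0.10 once length and GC content were accounted for. KAO2, an oxidase early in the pathway, had 9.84, 11.5 and 9.99 FPKM in dellaq and 36, 37.5 and 36.6 in lec1-4 (log2 change -1.72). GA3OX4, which makes active gibberellin in seeds, had 23.4 ± 0.201 in dellaq and 14.4 ± 0.629 in lec1-4, and GA20OX2, of the step before it, 8.03 ± 0.449 in dellaq and 15.9 ± 1.06 in lec1-4. With Col-0-1 taken for dellaq, GA3OX4 turned to -0.56 (adjusted p = 0.011 by limma). The GA20OX2 call was then lost (-0.12, adjusted p = 0.27 by limma). In the synthesis list 1 of the 2 rises and 1 of the 5 falls stood with either wild-type set. Of the inactivating oxidases, 3 could be tested: GA2OX2 rose by 0.86 and GA2OX6 fell by 1.02.

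Abscisic acid and auxin genes each held rises and falls. NCED9, a rate-limiting dioxygenase of abscisic acid synthesis, had 11.8, 10.6 and 8.97 FPKM in dellaq and 33.1, 31.5 and 32.9 in lec1-4, whereas NCED6, an enzyme of the same step, had 36.2, 35.3 and 33.1 in dellaq and 15.4, 12.9 and 15.9 in lec1-4. Neither call held with both wild-type sets: the difference was 0.12 for NCED6 with Col-0-1 taken for dellaq (adjusted p = 0.55) and 0.08 for NCED9 with Col-0-2 (adjusted p = 0.64). ABA2 had 31.4 ± 1.94 FPKM in dellaq and 15.8 ± 1.07 in lec1-4, and ABA3 had 11.3 ± 0.851 in dellaq and 19.9 ± 0.92 in lec1-4, a call lost with Col-0-2 taken for dellaq (-0.07, adjusted p = 0.57). Of 8 clade A phosphatases, which hold back abscisic acid signalling, 3 rose and 3 fell, beside 20.0% and 54.7% of all tested genes. HAI1 had 222, 260.2 and 249 FPKM in dellaq and 108, 106 and 107 in lec1-4, and the lec1-4 libraries lay near the wild-type means of 105 and 116. Among 7 tested auxin synthesis genes, YUC10 had 24.6, 29 and 31.2 in dellaq and 2.85, 3.3 and 2.91 in lec1-4, with means of 7.94 for Col-0-1 and 6.36 for Col-0-2 (log2 change 2.86). The flavin monooxygenases of this family make auxin, and no dellaq library of YUC10 came near any other library. TAA1 rose by 0.74 and TAR2 fell by 1.05.

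Genes of leaf-like epidermis differed between the mutants in ways that the list medians hide. Of 10 trichome genes 7 fell and 2 rose, beside 54.7% lower and 20.0% higher over all tested genes. Only 3 of the 7 falls, and neither rise, stood with either wild-type set. GL1, the trichome-initiating MYB, had 0, 0.724 and 0 FPKM in dellaq and 2.89, 3.72 and 6.36 in lec1-4 and was listed at 0 in both wild-type sets, and MYB23, its relative, had 0, 0.192 and 0 in dellaq and 2.26, 1.42 and 2.02 in lec1-4. Both were above 1 FPKM in all lec1-4 libraries and in no other group. Stomatal genes split, with 6 of 15 tested higher and 7 lower, and 1 of those rises and 3 of the falls stood with either wild-type set. EPF2, a secreted peptide that limits entry to the stomatal lineage, had 4.24, 3.99 and 5.39 FPKM in dellaq and 24.1, 40.6 and 28.1 in lec1-4, while EPF1, which acts later, had 5.06, 8.65 and 8.97 in dellaq and 0.907, 0.868 and 0.964 in lec1-4. CER1, of wax alkane synthesis, had 1.78, 6.18 and 2.63 in dellaq and 30.7, 34.5 and 34.6 in lec1-4, and LTP1, a lipid transfer protein gene, had 19.2, 72 and 28.5 in dellaq and 434, 427 and 506 in lec1-4. LTP1 had means of 12.9 for Col-0-1 and 307 for Col-0-2, so that its direction relative to the wild types turned with the set used (-8.08 with Col-0-2 taken for dellaq, 0.69 with Col-0-1).

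Of 10 tested embryo axis and meristem genes 7 fell and 1 rose. WOX8, a homeobox gene of the basal embryo lineage, had 7.17, 4.85 and 4.52 FPKM in dellaq and 18.9, 19.4 and 17.1 in lec1-4, with means of 23.5 for Col-0-1 and 19.9 for Col-0-2. BBM, an AP2 gene of embryo identity, was the rise (23.8 ± 1.58 in dellaq and 12.6 ± 1.46 in lec1-4), and its call was lost with Col-0-1 taken for dellaq (0.10, adjusted p = 0.47 by limma). In the endosperm list 4 of 9 tested fell and 2 rose. FWA, an imprinted homeobox gene, had 0.41, 0.991 and 0.223 FPKM in dellaq and 9.82, 10.5 and 9.78 in lec1-4, and ZOU, a factor for endosperm breakdown, 20.8, 14.4 and 16.3 in dellaq and 43, 45.5 and 40.8 in lec1-4. SUC5, an endosperm sucrose carrier, was higher, with 97.6 ± 4.91 in dellaq and 54.1 ± 3.22 in lec1-4. The SUC5 call was lost with Col-0-2 taken for dellaq (0.13, adjusted p = 0.15 by limma), and neither endosperm rise stood with both wild-type sets, while all 4 falls did. These counts are near the shares of all tested genes, 20.0% higher and 54.7% lower. FUL, a fruit valve gene, had 2.23, 2.26 and 2.2 FPKM in dellaq and 15.1, 18.3 and 17.1 in lec1-4. In the silique wall list 6 of 7 tested genes fell, which repeats the count of the markers above. Of 16 wound and touch genes 12 fell and 3 rose. LOX2, a jasmonate-producing lipoxygenase, had 5.33, 3.29 and 5.79 FPKM in dellaq and 46.4, 52.3 and 62.6 in lec1-4, and WRKY33 had 4.25, 1.7 and 2.04 in dellaq and 11.2, 11.4 and 8.34 in lec1-4. These wounding calls held in few cases against the wild-type sets: 2 of the 12 falls stood with either set.

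The place of the wild types divides the changes. Among the 1031 genes higher in dellaq by a log2 change of 1 or more, both wild-type means lay between the mutants for 439 (42.6%), above both mutants for 4 (0.388%) and below both for 64 (6.21%), and the other 524 (50.8%) had the wild-type sets on different sides of a mutant mean. Among the 1874 lower genes, they lay between for 1019 (54.4%), above both for 165 (8.8%), below both for 43 (2.29%) and mixed for 647 (34.5%). The difference between the mutants also stood past the test, in the same direction, with either wild-type set subtracted from either mutant for 668 of the 1031 (64.8%) and 1406 of the 1874 (75%). Without the fold limit it stood for fewer, 1280 of the 3859 higher genes (33.2%) and 4616 of the 10550 lower genes (43.8%). With Col-0-2 taken for dellaq, 580 of those higher genes and 591 of the lower were called in the opposite direction. With Col-0-1 these were 253 and 225. The direct change is the average of these paired differences, so they are not independent of it.

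Rises with both wild-type means above both mutants were few. One was AT3G12880, with 147 ± 13.4 FPKM in dellaq, 63.1 ± 4.86 in lec1-4, 195 ± 3.27 for Col-0-1 and 189.6 ± 5.44 for Col-0-2. Rises with the wild types below both mutants included AT1G04560, with 108, 274 and 192 FPKM in dellaq and 9.69, 2.91 and 11.9 in lec1-4 against means of 0.63 for Col-0-1 and 0.431 for Col-0-2. AT1G05450 had 25.5, 42.2 and 34.3 in dellaq and 0.21, 0.302 and 0.447 in lec1-4, and here lec1-4 stood close to the wild types, whose means were 0.241 and 0.0939. AT2G19320 had 12.7, 29.5 and 20.3 in dellaq, 0, 0.157 and 0 in lec1-4, and was listed at 0 in both wild-type sets.

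Falls with the wild types below both mutants included genes known from vegetative tissue, highest in lec1-4. PYK10, the beta-glucosidase of endoplasmic reticulum bodies in seedlings, had 2.78, 21 and 4.94 FPKM in dellaq and 76.3, 70.0 and 84.6 in lec1-4, with means of 0.385 for Col-0-1 and 0.284 for Col-0-2. NAI2, which builds those bodies, had 0.626, 4.35 and 0.65 in dellaq and 17.6, 16.6 and 21.4 in lec1-4, and the germin-like gene GER3 had 0, 2.03 and 0.273 in dellaq and 12.8, 9.87 and 12.4 in lec1-4. LTL1, a GDSL lipase gene, had 0.575, 4.75 and 0.771 in dellaq and 35, 30.9 and 40.1 in lec1-4. In all 4, dellaq replicate 2 was above the other dellaq libraries, and each lec1-4 library was above all of them. For GER3 and LTL1 the dellaq mean exceeded both wild-type means through replicate 2: without it the dellaq libraries of LTL1, 0.575 and 0.771, stand beside wild-type means of 0.765 and 0.82, and those of GER3, 0 and 0.273, beside 0.202 and 0.0924. Replicate 2 was also the highest dellaq library for AT1G19320, a fall with the wild types above both mutants, with 4.06, 14.2 and 2.25 FPKM in dellaq and 53.5, 73.3 and 94 in lec1-4. Without dellaq replicate 2 the test called 3772 genes higher and 9912 lower.

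Other large falls had the wild-type sets far apart. AT1G52930 had 1.09, 1.12 and 0.653 FPKM in dellaq and 37, 35.6 and 37 in lec1-4, with means of 27.4 for Col-0-1 and 1.42 for Col-0-2. MEE49 had 1.79, 1.79 and 1.15 in dellaq and 40.2, 37.2 and 39.3 in lec1-4 (means 33.8 for Col-0-1 and 1.59 for Col-0-2), and IMP4, related to a yeast factor of ribosomal RNA processing, 0.822, 0.714 and 0.398 in dellaq and 22.1, 21.6 and 21.4 in lec1-4 (means 16.6 for Col-0-1 and 0.566 for Col-0-2). These genes divide the 12 libraries as the rRNA loci do. FBA5, an aldolase gene, had 0.205, 0.178 and 0.13 FPKM in dellaq and 21.8, 18.5 and 21.6 in lec1-4, and TGG2, a myrosinase gene, 4.66, 6.69 and 7.63 in dellaq and 124, 128 and 117 in lec1-4.

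**Figure D5:**
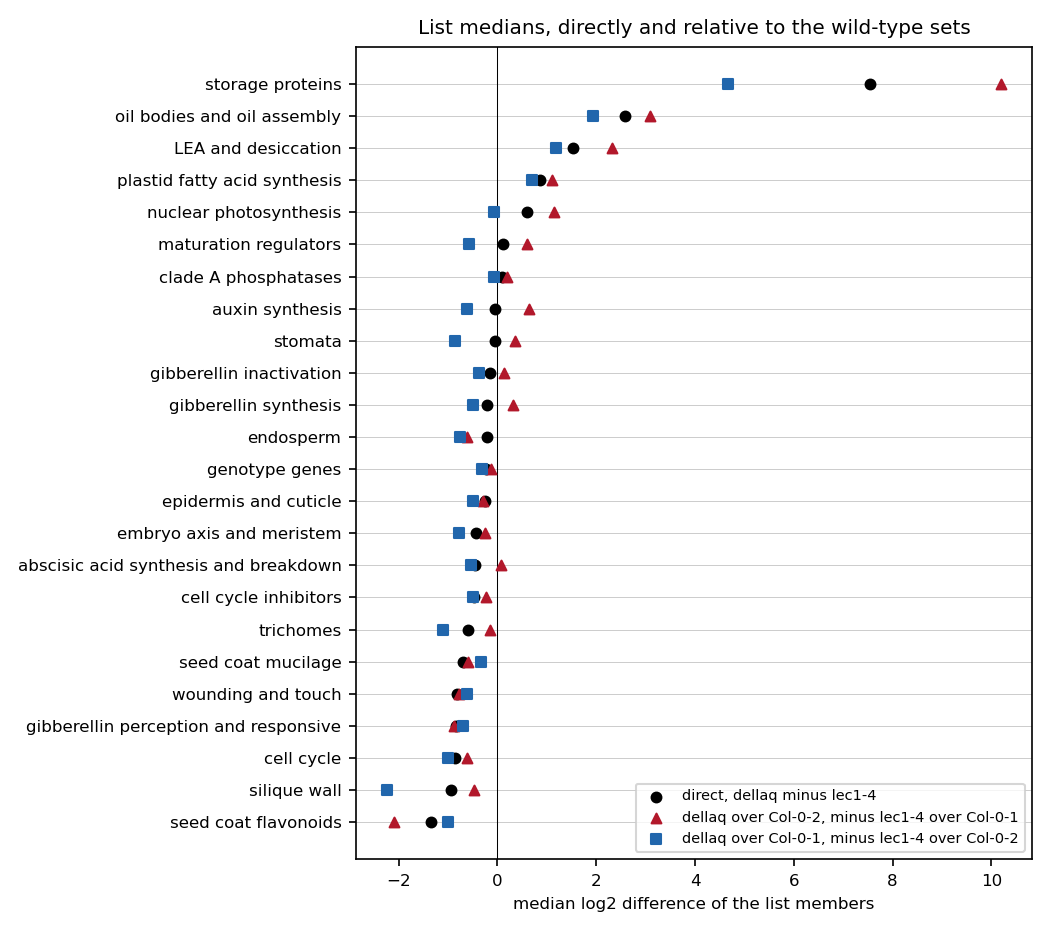
For each of the 24 gene lists the black point gives the median log2 change, dellaq minus lec1-4, the red triangle the median with Col-0-2 subtracted from dellaq and Col-0-1 from lec1-4, and the blue square the median with the wild-type sets exchanged. Storage proteins stay to the right under all 3 (7.55, 10.2 and 4.66), seed coat flavonoids to the left (-1.35, -2.1 and -1.01), and nuclear photosynthesis crosses 0 (0.60, 1.15 and -0.08).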

How the data were processed

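The authors deposited 4 tables of FPKM values per gene, 1 for each group with a column per library, so dellaq and lec1-4 are compared across tables, and whether the tables were scaled together is not given in the sources used here. All 12 value columns matched a sample title (0 unmatched). Per the submitters' processing notes HTSeq 0.6.1, DESeq 1.18.0, TopHat2 2.0.12 and Bowtie2 2.2.3 were among the tools, while no source used here gives their roles or the genome build. Per the labels' protocols, 3 µg of RNA went into poly-A libraries made with a kit that does not mark strand, so overlapping antisense genes cannot be told apart. Depth is unknown, since FPKM holds no counts, and no counting intervals are given.

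Nuclear genes with 1 FPKM or more in at least 3 of the 6 libraries were tested on log2(FPKM + 1) with limma 3.58.1 (trend, 4 residual degrees of freedom) in R 4.3.3, dellaq minus lec1-4, with Benjamini-Hochberg adjustment over all 19287 genes and a threshold of 0.05. The procedure was tested on simulated data. Scalings, filters, pseudocounts, a length and GC trend (mgcv 1.9.3), wild-type differences and left-out libraries were tried. Named genes are LEC1 and the DELLA genes, the 12 largest called changes each way with no overlap and at least 5 FPKM in the higher group, up to 4 of smallest p in each list with 3 or more calls, and 4 per wild-type class; others were chosen after their values were seen. The members and lists were chosen with earlier results of these data known. Symbols came from RefSeq TAIR10.1, which paired 32835 of 33602 identifiers, and upstream windows from its genome; 19260 tested genes had one.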

Additional observations from a re-analysis of the deposited data

Results flagged for a closer look

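Plastid-encoded and mitochondrial genes were outside the test. Plastid-encoded genes summed to a mean of 7673 FPKM in dellaq, 164 in lec1-4, 202 in Col-0-1 and 4819 in Col-0-2, which puts dellaq above both wild-type sets. Mitochondrial genes summed to a mean of 384.9 FPKM in dellaq, 98.2 in lec1-4, 85.0 in Col-0-1 and 194.8 in Col-0-2. In both sums dellaq and Col-0-2 were high and lec1-4 and Col-0-1 low. The libraries were made from poly-A RNA, which organelle transcripts mostly lack; what these sums contribute to the nuclear changes was not tested.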

How the results depend on the processing

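Of 125 named genes, 113 to 125 kept their direction and side of the threshold in each alternative. Median-ratio scaling gave 6469 genes higher and 6225 lower, with 1580 and 1167 at a log2 change of 1 or more. Removing the length and GC trend gave 6101 and 6377. The wild-type difference with Col-0-1 taken for dellaq gave 1712 and 3635 genes at that limit, and the limit itself left 2905 genes called, 1458 of them with both wild types between the mutants, against 6003 of all called. Leaving out each library in turn gave 13334 to 14119 genes called, 3518 to 3772 higher and 9790 to 10439 lower, with 1008 to 1067 and 1825 to 1995 at the limit, 306 to 322 called list members and 4 to 5 called genotype genes. Same-numbered libraries did not pair (correlations 0.04, -0.05 and 0.07); the replicate block gave 14142 calls, 3821 higher and 10321 lower, and with the trend removed 5957 and 6167. GAI turned to 0.20 under median-ratio scaling, 0.095 under upper-quartile scaling, 0.26 with the trend removed, block or not, and 0.11 without dellaq replicate 2. It was called only without dellaq replicate 1 (-0.29, adjusted p = 0.04). RGL3 turned to -0.12 with equal sums, -0.04 without dellaq replicate 3 and -0.076 without lec1-4 replicate 2. With Col-0-2 taken for dellaq, SIM turned to -0.23 and NCED9 to 0.080; with Col-0-1, GA3OX4 turned to -0.56, POLAR to -0.48 and LTP1 to 0.69. The causes were not tested. Depth is unknown, so genes near 1 FPKM are the least certain.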

Other observations

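Genes named for irregular xylem, which build cellulose and xylan of secondary cell walls, were looked at after their values were seen. Of 10 tested, 9 were lower in dellaq, beside 54.7% of all tested genes, and 7 of them by a log2 change of 1 or more. Their median was -2.35 beside -0.28 over all tested genes. IRX12, a laccase of lignin formation, averaged 5.24 ± 0.40 FPKM in dellaq, 69.6 ± 15.0 in lec1-4, 80.4 ± 0.33 in Col-0-1 and 19.2 ± 4.6 in Col-0-2 (SD, n = 3 each). IRX3, a cellulose synthase subunit, averaged 3.23 ± 0.44 in dellaq, 27.3 ± 6.98 in lec1-4, 30.9 ± 0.15 in Col-0-1 and 7.75 ± 2.28 in Col-0-2. For both, dellaq was below either wild-type set and lec1-4 was near Col-0-1. The size depended on the wild-type set. With Col-0-2 taken for dellaq the difference was -1.45 for IRX12 and -0.83 for IRX3, and with Col-0-1 it was -5.52 and -4.62. IRX9, called lower, turned to 1.725 with Col-0-2 and was -2.55 with Col-0-1.

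WRKY factors, many of them active in defence, were lower in dellaq for 27 of 38 tested and higher for 1. Their median was -0.73, and 11 of the falls reached a log2 change of 1. Over all tested genes 54.7% were lower and 20.0% higher, with a median of -0.28. Some falls depended on the wild-type set: WRKY12 differed by -0.21 with Col-0-2 taken for dellaq and -3.43 with Col-0-1. WRKY53 did not, at -1.665 and -2.035. WRKY53 averaged 0.81 ± 0.37 FPKM in dellaq, 5.59 ± 1.61 in lec1-4, 8.96 ± 0.31 in Col-0-1 and 7.81 ± 1.16 in Col-0-2. SPL factors, of the phase-change family, had 9 of 11 tested lower and none higher, with a median of -0.88. Glycine-rich protein genes had 8 of 11 higher and none lower, with a median of 1.37, but several followed the wild-type sets: GRP5 averaged 48.8 ± 18 FPKM in dellaq, 7.24 ± 1.8 in lec1-4, 7.45 ± 0.39 in Col-0-1 and 909 ± 293 in Col-0-2. Relative to the wild types its difference was -4.15 with Col-0-2 taken for dellaq and 9.27 with Col-0-1. These families were chosen after their values were seen and have no test of their own.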
